A study of Danio rerio with 11 samples.

Results

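Neutrophil granulocytes are the first white cells to reach sites of infection. They carry peroxidases, lysozyme and proteases in granules, make reactive oxygen with the NADPH oxidase, and depend on the growth factor G-CSF, whose receptor is encoded by csf3r, and on transcription factors of the C/EBP family. In zebrafish embryos the first granulocytes arise from embryonic (primitive) myeloid precursors, and further myeloid cells come from progenitors in the posterior blood island of the tail. Lsd1, encoded by kdm1a, is a histone lysine demethylase that works largely as a repressor, and in mammals it is a partner of the repressor Gfi1, which is needed for neutrophil maturation in mice.

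Transcripts of 8 granulocyte genes were followed in tails of lsd1 mutant zebrafish embryos: the granule and protease genes mpx, lyz, npsn and mmp13a, the oxidase gene ncf1, the receptor gene csf3r, and the transcription factor genes cebp1 and cebpb. They were chosen with earlier results of these data known, so counts of calls among them are descriptions. All 8 were found by name in a count table of 23617 gene identifiers. Of them, 7 had enough counts to be tested, and mmp13a did not. The gene name table gives mpx (ENSDARG00000019521) under the symbol EPX in capitals, and a separate gene is listed as epx in lower case.

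Each library came from a pool of 5 tails, taken behind the yolk sac at 24 hours post fertilisation. There were 2 mutant lines, 36433 and 23095, each with wildtype siblings as controls. For line 36433 there were 3 libraries of mutants and 3 of wildtypes, and for line 23095 there were 3 of mutants (replicates 1, 2 and 4) and 2 of wildtypes. The labels do not give the lesion in either line, nor whether the pools came from separate clutches. Adjusted p-values below are therefore set against the variation among these pools alone, part of which may be technical.

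Total counts per library ran from 8204459 in 23095 mutant replicate 2 to 17195875. Levels are given as CPM, the counts of a gene scaled to library size (edgeR's cpm, after TMM normalisation). A count of 3, taken here as the floor of detection for counting error, corresponded to 0.169 to 0.388 CPM. In the 23095 wildtypes 19.2% and 17.4% of all counts fell on the 10 most abundant genes, a larger share than in any other library. The targeted gene kdm1a was at 162, 155 and 135 CPM in the wildtypes of line 36433 and at 36.9, 34.2 and 34.8 CPM in its mutants, so that it fell by 2.1 on the log2 scale (edgeR quasi-likelihood test, adjusted p = 6.93e-05). The 23095 wildtypes held 124 and 142 CPM of kdm1a and the mutants 130, 170 and 130 CPM (adjusted p = 0.781), so the transcript level checks the labels of line 36433 and not those of line 23095. Markers of skeletal muscle and of epidermis, as a tail should hold, were detected in every group.

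Averaged over both lines, the granule genes mpx and lyz fell in mutants, by 3.72 and 3.60 on the log2 scale, and the receptor gene csf3r rose by 1.24. The other 4 tested genes did not pass the test, with npsn at -1.76, ncf1 at -1.84, cebp1 at 1.2 and cebpb at -0.03. Calls required an adjusted p under 0.05 (edgeR quasi-likelihood test, Benjamini-Hochberg adjustment over 20886 genes). In that average 3 of the 7 tested genes were called, 2 lower and 1 higher, where 2.33% of all tested genes were called, 1.03% lower and 1.3% higher. By DESeq2, another count test, 5 of the 7 were called, and 5.19% of all tested genes. In the contrast of line 36433 1 of 7 was called (0.168% of all tested genes, 0.0479% lower), and in that of line 23095 1 of 7 (1.63% of all tested genes, 0.934% lower). The called gene was mpx in both, and it was lower. Both contrasts came from 1 model of all 11 libraries with a shared estimate of spread. With only the compared groups fitted, calls over all genes in line 23095 went from 340 to 6.

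**Figure D1:**
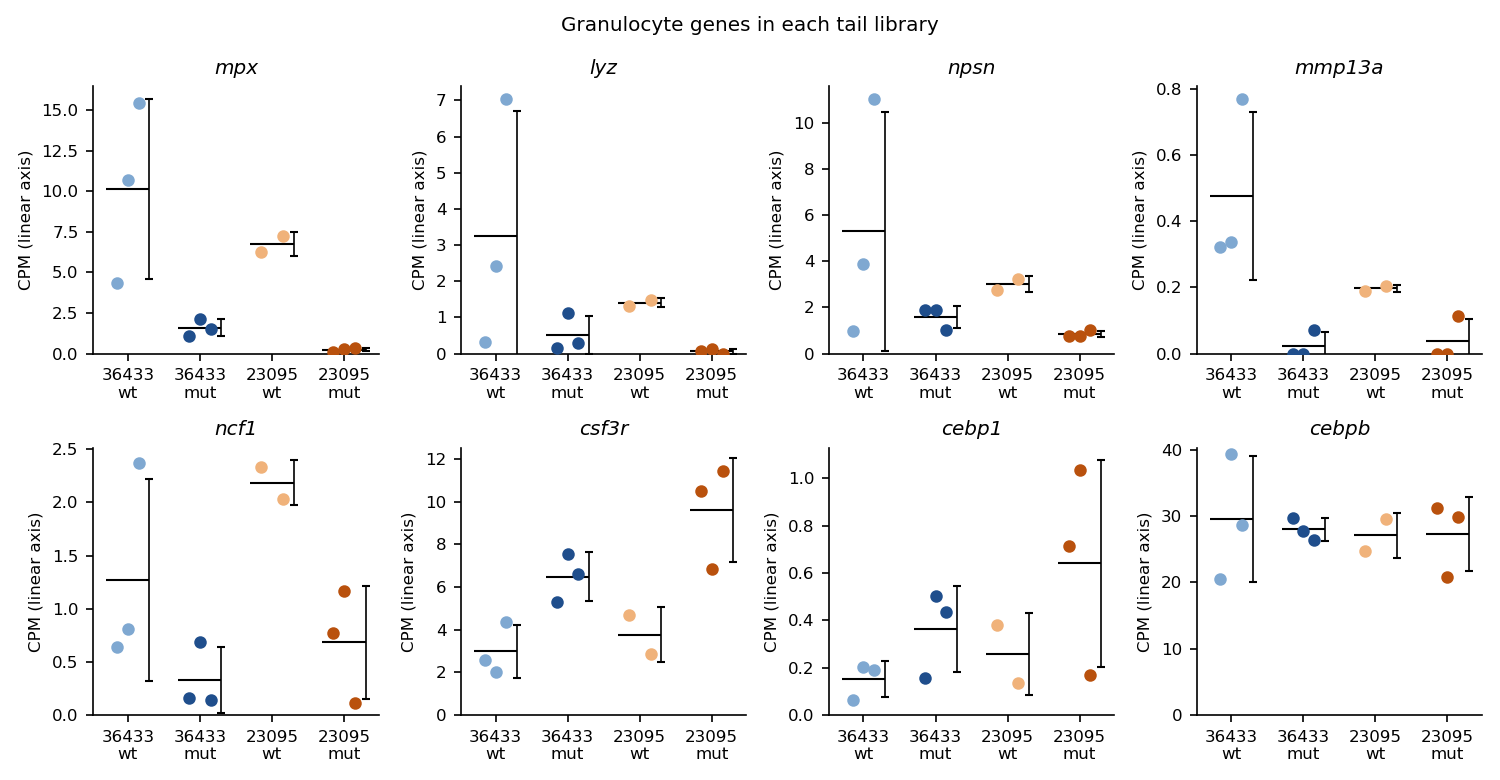
CPM of the 8 granulocyte genes in each library (points), with the group mean (line) and SD (bar, not drawn below 0) on linear axes, for wildtypes (wt) and mutants (mut) of lines 36433 and 23095. Every mutant mpx value lies below every wildtype value, from 0.119 to 2.13 against 4.36 to 15.4 CPM, whereas csf3r is higher in the mutants of each line.

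Myeloperoxidase, the product of mpx, makes hypochlorous acid in granulocyte granules. In line 36433 the mpx level was 4.36, 10.7 and 15.4 CPM in the 3 wildtypes and 1.09, 2.13 and 1.52 CPM in the 3 mutants. Line 23095 had mpx levels of 6.25 and 7.25 CPM in the wildtypes and 0.119, 0.259 and 0.339 CPM in the mutants, values that rest on 2, 2 and 6 counts. The groups did not overlap in either line, and the 23095 mutants were the lowest of all 4 groups. In line 36433 mpx fell by 2.66 on the log2 scale (edgeR, 95% interval -3.57 to -1.75, adjusted p = 0.0230), or 6.33-fold. In line 23095 it fell by 4.78 (-6.04 to -3.52, adjusted p = 0.00694), or 27.5-fold. The standard errors and 95% intervals of fold changes given here were derived from the F statistic of the test and are approximate. The summed counts of line 23095, 10 in mutants against 206 in wildtypes, gave a level 28.4-fold lower with an exact counting interval of 15.1 to 60.2. All such counting intervals cover counting error only.

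The call in line 36433 was lost in 5 of the 6 fits that left out 1 of its libraries (adjusted p up to 0.187) and held only without wildtype replicate 1, the lowest wildtype (adjusted p = 0.00116). Fitted on line 36433 alone, the log2 fold change was -2.65 with an adjusted p of 0.0897. The call in line 23095 was kept in each of the 5 such fits (adjusted p up to 0.0454). The average over lines (standard error 0.36, 95% interval -4.50 to -2.95, adjusted p = 0.000303) kept its call under every alternative tried, and mpx ranked 10 from the lowest among the 20886 tested genes. The authors' deposited tables give mpx a log2 fold change of -1.87 in line 36433 (adjusted p = 1.41e-06) and -2.37 in line 23095 (adjusted p = 4.72e-10). Those values are smaller in size than the ones fitted here, and whether they were shrunk is not given in the sources used here.

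Lysozyme, which cleaves bacterial cell walls, is encoded by lyz (ENSDARG00000057789) and is made by granulocytes and by some other early myeloid cells of zebrafish. Its level was 0.321, 2.42 and 7.04 CPM in the wildtypes of line 36433 and 0.156, 1.13 and 0.290 CPM in the mutants, and these groups overlapped. The 23095 wildtypes had 1.33 and 1.49 CPM and the mutants 0.0596, 0.130 and 0 CPM, with every mutant below both wildtypes. The 23095 mutants held 2 lyz counts in all against 43 in the 2 wildtypes, 29.7-fold lower with a counting interval of 7.73 to 253. In neither line did lyz pass the edgeR test (adjusted p = 0.515 in line 36433 and 0.117 in line 23095). In line 23095 lyz passed by DESeq2 (adjusted p = 0.0139) and under none of the other alternatives (adjusted p up to 0.452). The authors' deposited tables give lyz a log2 fold change of -0.766 in line 23095 (adjusted p = 0.0138) and -1.02 in line 36433 (adjusted p = 0.214). The average over lines fell by 3.60 (standard error 0.82, 95% interval -5.37 to -1.84, adjusted p = 0.0404). That call was kept in only 2 of the 11 fits that left out 1 library, those without 36433 wildtype replicate 1 and without 36433 mutant replicate 2 (adjusted p up to 0.145 in the others).

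Nephrosin, a metalloprotease of the astacin family found in fish granulocytes, is encoded by npsn (ENSDARG00000010423). The npsn level in line 36433 was 0.962, 3.90 and 11.1 CPM in wildtypes and 1.87, 1.88 and 1.01 CPM in mutants. The lowest wildtype there lay below all 3 mutants, so these groups overlapped. In line 23095 npsn was at 2.78 and 3.25 CPM in wildtypes and 0.775, 0.777 and 1.02 CPM in mutants, which did not overlap. The log2 fold change was -1.74 in line 36433, -1.79 in line 23095 and -1.76 on average (95% interval -2.79 to -0.73), and the average did not pass the edgeR test (adjusted p = 0.0761). It passed by DESeq2 with all libraries (adjusted p = 0.00648), and by edgeR without 36433 wildtype replicate 1 (adjusted p = 0.00648).

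The matrix metalloprotease gene mmp13a (ENSDARG00000012395), a collagenase gene of zebrafish myeloid cells, was too low to test. It had 5, 5 and 12 counts in the wildtypes of line 36433 and 0, 0 and 1 in the mutants, and 3 and 3 counts against 0, 0 and 2 in line 23095. Every mutant library was below every wildtype library of its line, but most values were at or near the floor of 3 counts. The 22 counts of the 36433 wildtypes against 1 in the mutants gave a level 20.3-fold lower with a counting interval of 3.29 to 839, and in line 23095 the interval included no difference (0.740 to 41.9-fold lower). Fitted with no filter on low counts, its average log2 fold change was -2.91 (standard error 0.84, adjusted p = 0.0992).

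The oxidase gene ncf1 (ENSDARG00000033735) encodes a cytosolic subunit that assembles the NADPH oxidase at the membrane. Its level was 0.641, 0.807 and 2.37 CPM in the wildtypes of line 36433 and 0.156, 0.688 and 0.145 CPM in the mutants, where the highest mutant overlapped the lowest wildtype. For line 23095 these were 2.34 and 2.03 CPM in wildtypes and 0.775, 1.17 and 0.113 CPM in mutants, with no overlap. The log2 fold change was -1.87 in line 36433, -1.81 in line 23095 and -1.84 on average (95% interval -3.02 to -0.65), which did not pass the edgeR test (adjusted p = 0.105). The average passed by DESeq2 with all libraries (adjusted p = 0.0342), and by edgeR without 36433 wildtype replicate 1 (adjusted p = 0.0493).

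The receptor gene csf3r (ENSDARG00000045959) was the only one of the 7 tested genes called higher in the average. The value of cebp1 was close to it, at 1.2, but did not pass the test. The csf3r level in line 36433 was 2.56, 2.02 and 4.35 CPM in wildtypes and 5.31, 7.57 and 6.59 CPM in mutants. The 23095 levels of csf3r were 4.67 and 2.85 CPM in wildtypes and 10.5, 6.87 and 11.5 CPM in mutants. Every mutant library was above every wildtype library of both lines. The log2 fold change was 1.12 in line 36433 (adjusted p = 0.340) and 1.36 in line 23095 (adjusted p = 0.0723), neither of which passed the edgeR test. In line 23095 csf3r passed by DESeq2 (adjusted p = 0.00853) and by edgeR with library totals alone (adjusted p = 0.0480). The average was 1.24 (standard error 0.24, 95% interval 0.73 to 1.75, adjusted p = 0.0192), and it lost its call without 23095 wildtype replicate 1 (adjusted p = 0.0637), 23095 wildtype replicate 2 (0.0858) or 36433 mutant replicate 3 (0.0575). In the authors' deposited tables csf3r was at a log2 fold change of 0.867 in line 36433 (adjusted p = 0.0937) and 1.05 in line 23095 (adjusted p = 0.00893). In RefSeq, on a later assembly than the one the labels name, 3 uncharacterised loci overlap csf3r and 1 overlaps cebpb, so reads of those loci could be shared with them.

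Both C/EBP genes overlapped between mutants and wildtypes in each line. The gene cebp1 (ENSDARG00000101096), a C/EBP factor of fish myeloid cells, was at 0.0641, 0.202 and 0.192 CPM in the 36433 wildtypes and 0.156, 0.500 and 0.434 CPM in the mutants, and at 0.379 and 0.136 against 0.716, 1.04 and 0.169 CPM in line 23095. Its counts ran from 1 to 12, and an average log2 fold change of 1.2 (95% interval -0.07 to 2.46) did not pass the test (adjusted p = 0.314). The gene cebpb (ENSDARG00000042725), whose mammalian product drives granulocyte production during infection, was at 20.5, 39.3 and 28.7 CPM in the 36433 wildtypes and 29.7, 27.8 and 26.4 CPM in the mutants. In line 23095 cebpb was at 24.7 and 29.5 CPM in wildtypes and 31.1, 20.9 and 29.8 CPM in mutants. Its average log2 fold change was -0.03, and the 95% interval, -0.38 to 0.32, bounds the size of any difference (adjusted p = 0.948).

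**Figure D2:**
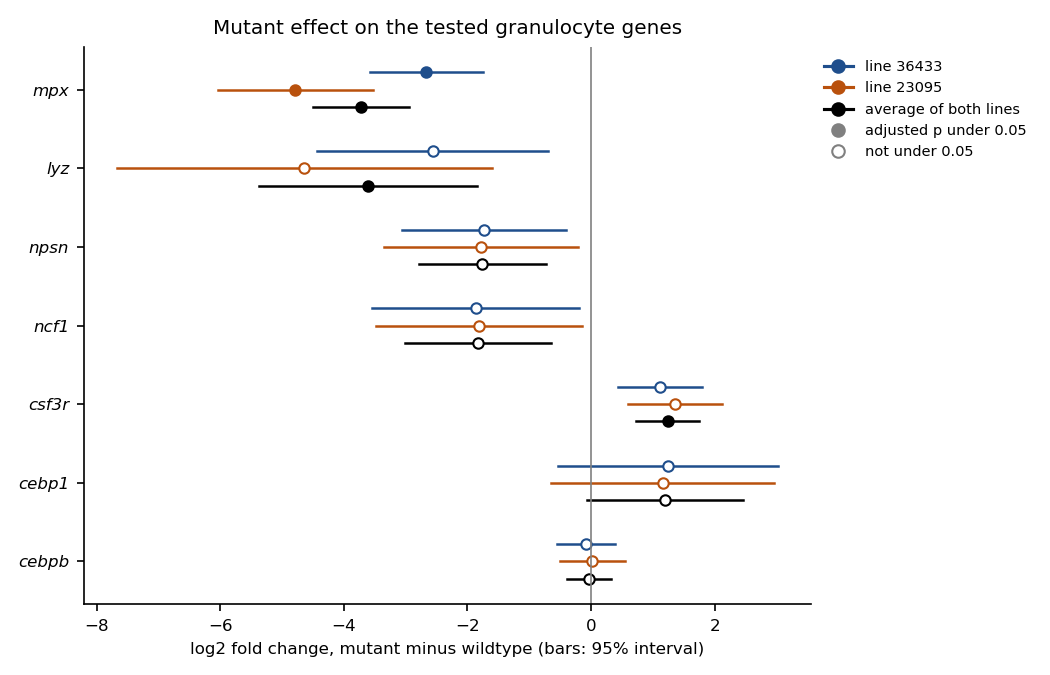
Log2 fold change of mutants against wildtypes for the 7 tested granulocyte genes in line 36433, line 23095 and the average of both lines, with approximate 95% intervals derived from the edgeR F statistic (filled points, adjusted p under 0.05). The mpx point is filled in all 3 comparisons, and lyz and csf3r are filled in the average alone.

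Because tails are mixtures of cells, fewer granulocytes and less of a transcript per granulocyte cannot be told apart in these libraries. Counted by library, the mutants lay wholly below the wildtypes for 2 of the 8 genes in line 36433 (mpx and mmp13a) and for 5 in line 23095 (mpx, lyz, npsn, mmp13a and ncf1). Over all tested genes, which do not include mmp13a, that was the case for 6.28% in line 36433 and 17.4% in line 23095. They lay wholly above for csf3r in both lines, against 7.23% and 16.4% of tested genes. The mpx level was below in both lines, as were 1.44% of tested genes, and csf3r above in both, as were 2.58%.

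The 4 groups took the same order for mpx, lyz and npsn, from the 36433 wildtypes through the 23095 wildtypes and the 36433 mutants to the 23095 mutants. For mpx and lyz the libraries of the 2 wildtype groups overlapped, while those of each following pair of neighbours did not. For npsn the only neighbours that did not overlap were the 23095 wildtypes and the 36433 mutants. The csf3r order was the 23095 mutants, the 36433 mutants, the 23095 wildtypes and the 36433 wildtypes, and the libraries were apart only between the mutants and the wildtypes. No neighbouring groups were apart for ncf1, cebp1 or cebpb. The share of all tested genes with such neighbours apart was not counted.

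Between the mutants of the 2 lines, mpx was at a mean of 0.239 ± 0.111 CPM in line 23095 and 1.58 ± 0.519 CPM in line 36433 (SD, n = 3 each). This was a log2 difference of -2.71 (95% interval -4.04 to -1.37), which did not pass the edgeR test (adjusted p = 0.0553). It passed with library totals alone (adjusted p = 0.0376), with DESeq2 (adjusted p = 0.00173) and when only these mutants were fitted (adjusted p = 0.0475). The authors' deposited table gives -1.05 for the same comparison (adjusted p = 0.00184). Between the wildtypes the mpx difference was -0.59 (95% interval -1.50 to 0.33, adjusted p = 0.580).

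The direct test of whether the mutant effect differs between lines, line 23095 minus line 36433, gave -2.12 for mpx (standard error 0.76, 95% interval -3.76 to -0.48), and did not pass after adjustment (adjusted p = 0.557). Of the 7 tested genes, 0 were called in that comparison by edgeR and 0 by DESeq2, and 1, mpx, had an unadjusted p under 0.05. Of all tested genes 0.00958% were called there by edgeR, 0.273% by DESeq2, and 7.59% had such a p. For csf3r the effects differed by 0.24 (95% interval -0.77 to 1.25), and for npsn by -0.05 (-1.96 to 1.86). Those intervals leave room for differences of more than 1 log2 unit in npsn and csf3r, and they may be too narrow for values this near 0. Between the wildtypes of the lines 0 of the 7 were called by edgeR, 0 by DESeq2 and 0 at an unadjusted p under 0.05, against 0.393%, 2.72% and 13.7% of all tested genes. Between the mutants 0 were called by edgeR, 1 by DESeq2 and 2 (mpx and lyz) at an unadjusted p under 0.05, against 1.13%, 2.88% and 13.8%.

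The wildtypes of line 36433 differed widely from one another in the granule genes. Replicate 3 was the highest and replicate 1 the lowest for mpx, lyz, npsn, mmp13a and ncf1. The highest level was 3.54-fold the lowest for mpx, 22-fold for lyz and 11.5-fold for npsn, while kdm1a differed by 1.2-fold. Summed over mpx, lyz and npsn the level was 5.64 CPM in replicate 1 and 33.5 CPM in replicate 3. Over the same libraries the summed level differed by 2.23-fold for the pan-leukocyte markers, 3.01-fold for the thrombocyte markers, 2.20-fold for the epidermal, 1.75-fold for the erythroid and 1.49-fold for the muscle markers. For gata2a, the 1 matched gene of the mast cell and eosinophil list, the level differed by 1.47-fold. Summed macrophage markers differed by 1.18-fold and summed endothelial markers by 1.07-fold. These folds do not give the order of the replicates. Only the pan-leukocyte, muscle and macrophage sums rose from replicate 1 through 2 to 3. The thrombocyte sum ran the other way, at 4.81, 3.83 and 1.60 CPM in replicates 1, 2 and 3. So did gata2a, at 5.07, 3.70 and 3.46 CPM. The erythroid sum was lowest in replicate 3, and the epidermal sum was highest in replicate 2. Abundant genes weigh most in such sums, and arhgdig gave 63.8% to 82.8% of the pan-leukocyte sum over all libraries. The MFAP4 copy ENSDARG00000088745 was at 1.47, 1.95 and 3.39 CPM in these libraries, where the macrophage sum ran from 127 to 150 CPM. What set the spread of the granule genes was not tested. In the edgeR fit the coefficient of biological variation was 0.342 for mpx, 0.701 for lyz, 0.498 for npsn and 0.550 for ncf1, against 0.249 for csf3r and a median of 0.199 over all genes. Without wildtype replicate 1 of line 36433, 5 of the 7 tested genes were called in the average (mpx, lyz, npsn and ncf1 lower, csf3r higher), and over all tested genes the count of calls went from 486 to 1439. Only 1 was called, mpx, without 23095 wildtype replicate 1, 23095 wildtype replicate 2 or 36433 mutant replicate 3, fits with 56, 196 and 135 calls over all genes.

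In the average over lines, the granule and protease list held 9 matched genes, 8 of them tested, of which 2 fell (mpx and lyz) and 0 rose, with a median log2 fold change of -0.42 beside 0.00 over all tested genes. Over all tested genes 1.03% were called lower and 1.3% higher in that average. The remaining members of the list with the smallest p were npsn and the membrane-type metalloprotease gene mmp25b, at 0.56 (adjusted p = 0.230). The 6 NADPH oxidase genes all had values below 0 (median -0.49). Of these, 0 were called by edgeR and 2 by DESeq2, against 2.33% and 5.19% of all tested genes. An unadjusted p under 0.05 was found for 3 of the 6, and for 17.4% of all tested genes. Among the oxidase genes cybb, the catalytic subunit, was at -0.97 (adjusted p = 0.0847). The membrane partner gene cyba was at -0.59 (0.267) and the GTPase gene rac2 at -0.40 (0.388).

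Of 13 tested receptor and signalling genes, csf3r alone was called (higher, as were 1.3% of all tested genes), and the list median was -0.05. The ligand gene csf3a was at -0.31 (adjusted p = 0.712). The cytokine signalling inhibitor SOCS3 (ENSDARG00000025428, one of 2 copies) was at -0.75 (adjusted p = 0.238), the chemokine gene cxcl12b at -0.22 (0.440) and the leukotriene enzyme gene lta4h at -0.16 (0.562). The csf3r call is the one noted above as lost without certain libraries.

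Of 13 tested C/EBP and myeloid transcription factor genes, 5 rose and 1 fell, with a median log2 fold change of 0.82. Over all tested genes 1.3% were called higher and 1.03% lower. The repressor gene gfi1ab (GFI1 in the name table) rose by 4.82 (adjusted p = 7e-06). The library values of gfi1ab were 0.513, 1.34 and 1.47 CPM in the 36433 wildtypes and 12.8, 20.0 and 23.8 CPM in the mutants, and in line 23095 0.568 and 0.746 against 38.3, 19.3 and 35.7 CPM. Its copy gfi1aa rose by 2.87 (adjusted p = 0.00110). The related gfi1b, a transcriptional repressor that acts in red cell and platelet lineages, rose by 1.72 (adjusted p = 0.0256). Also higher were runx1 and myb, regulators of blood stem and progenitor cells, by 1.71 (adjusted p = 0.0115) and 0.82 (adjusted p = 0.0165). The gene that fell was spi1a, one of a pair of zebrafish PU.1 genes that promote myeloid fate, by 2.66 (adjusted p = 0.0240). Its counts were 11, 24 and 17 in the 36433 wildtypes and 5, 10 and 5 in the mutants, and 20 and 8 against 0, 0 and 2 in line 23095. The other PU.1 gene, spi1b, which is named here after its value was seen, was at 0.82 (adjusted p = 0.185). Without 23095 wildtype replicate 1 only gfi1ab and gfi1aa stayed called among these 13, and without 36433 mutant replicate 3 a count of 3 was called. Without the 8 genes followed here, the 4 role lists held 33 tested genes with 5 higher, 1 lower and a median of -0.09.

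**Figure D3:**
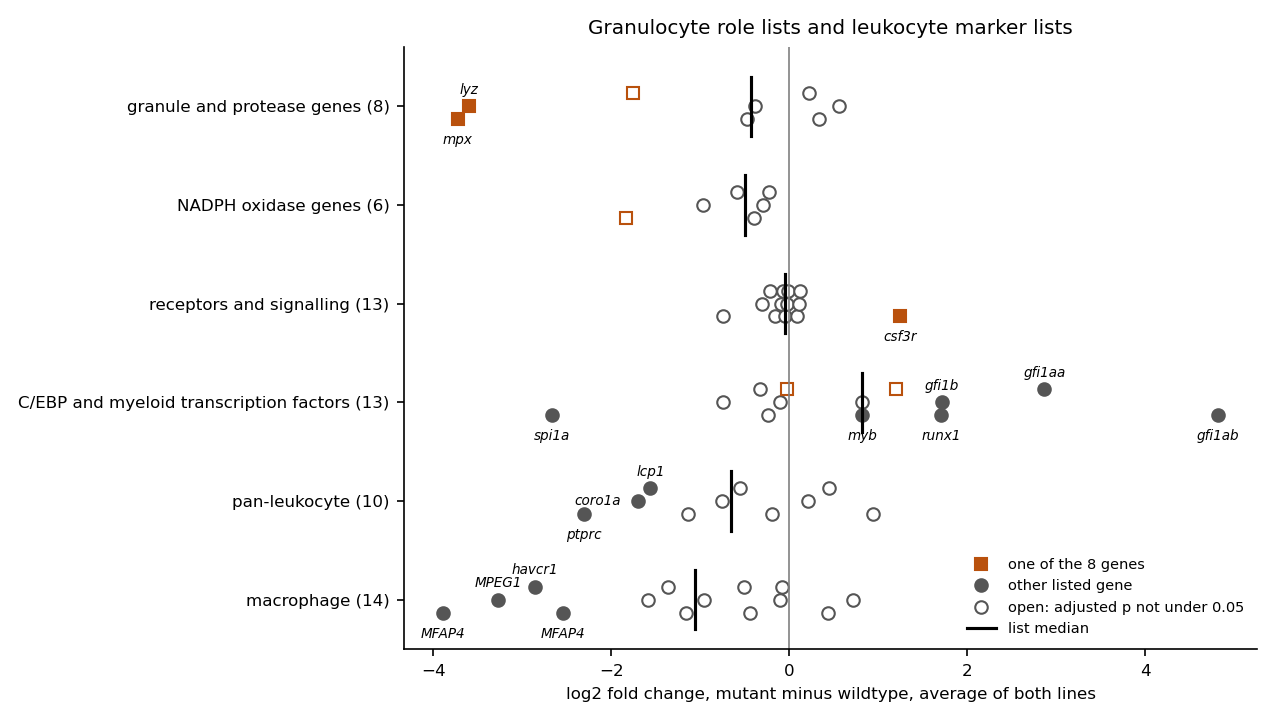
Log2 fold change in the average of both lines for each tested gene of 4 role lists and of the pan-leukocyte and macrophage marker lists (tested genes in brackets), with list medians as vertical lines. The granule genes mpx and lyz lie at the low end of their list, csf3r lies above the other receptor and signalling genes, and gfi1ab and gfi1aa lie furthest to the right.

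Some markers of leukocytes in general, and some of macrophages, fell in mutants as well. Of 13 matched pan-leukocyte genes 10 were tested, and 3 fell in the average over lines and 0 rose: the actin-bundling gene lcp1 by 1.56 (adjusted p = 0.00964), the actin regulator gene coro1a by 1.70 (adjusted p = 0.00964) and ptprc, which encodes CD45, by 2.31 (adjusted p = 0.0211). Over all tested genes 1.03% were called lower and 1.3% higher. The next pan-leukocyte gene, arpc1b, was at -0.76 (adjusted p = 0.0509), and the list median was -0.66. Without 23095 wildtype replicate 1 none of them passed, with 0 of 10 called by edgeR (adjusted p of lcp1 and coro1a 0.0627 and 0.0630). The summed level of the pan-leukocyte list was 118 to 262 CPM in the 36433 wildtypes and 147 to 173 CPM in the mutants, and 147 to 157 against 87.3 to 142 CPM in line 23095. Between 63.8% and 82.8% of that sum came from 1 gene, arhgdig.

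Of 18 matched macrophage genes 14 were tested, of which 4 fell and 0 rose (1.03% and 1.3% of all tested genes), with a median of -1.06. They were 2 of the copies listed as MFAP4 (ENSDARG00000088745 at -3.89, adjusted p = 0.00201, and ENSDARG00000090783 at -2.54, adjusted p = 0.00796), a copy of the perforin-like macrophage gene MPEG1 (ENSDARG00000055290 at -3.27, adjusted p = 0.0258) and havcr1 (-2.85, adjusted p = 0.0490). Reads can be shared between such copies. The number called was 1 without 23095 wildtype replicate 1 and 2 without 23095 wildtype replicate 2, 23095 mutant replicate 4 or 36433 wildtype replicate 3. The summed level of the macrophage list was 127 to 150 CPM in the 36433 wildtypes and 97.8 to 145 CPM in the mutants, and 134 to 166 against 99.7 to 108 CPM in line 23095. Summed over the libraries of a group, no matched marker of either list was at 0, but single libraries missed some. Of the 18 macrophage genes, 18 and 17 were detected in the 23095 wildtypes and 15, 15 and 13 in the mutants. In line 36433 these were 17, 16 and 18 in the wildtypes and 16, 17 and 15 in the mutants. Of the mast cell and eosinophil list only gata2a was matched (0.39, adjusted p = 0.450). The genes cpa5, embp and prg3 were not, so the list gives no level of those cells. The part of these other white cells in the levels of mpx and lyz was not tested.

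Some markers of other tail cells changed too, and those named here were picked after their values were seen. Over all tested genes 1.3% were called higher and 1.03% lower in the average. In line 23095 the share called was 1.63%, with 0.934% lower. Of 8 endothelial genes, 2 rose in the average, the transcription factor gene fli1a by 0.69 (adjusted p = 0.0115) and the receptor gene tek by 1.2 (adjusted p = 0.0154), and both lost their calls without 23095 wildtype replicate 1 (0.0836 and 0.0933). In the contrast of line 23095, 3 of them rose (fli1a, tek and etv2) and 1 fell (pecam1). The summed endothelial level was 353 to 355 CPM in the 23095 wildtypes and 458 to 591 CPM in the mutants, and 293 to 313 against 318 to 394 CPM in line 36433. All 6 skeletal muscle genes were below 0 in line 23095, where 1 fell, mybpc2b by 1.84 (adjusted p = 0.0331). In the average 0 of the 6 were called by edgeR and 1 by DESeq2, against 2.33% and 5.19% of all tested genes. An unadjusted p under 0.05 was found for 2 of the 6, and for 17.4% of all tested genes. The summed level of the muscle genes was 18808 to 22308 CPM in the 23095 wildtypes and 8476 to 17563 CPM in the mutants, while the 36433 groups overlapped. The 5 calls of line 23095 were each lost without its wildtype replicate 1. In the average 1 of 14 erythroid genes rose, a globin copy listed as HBE1 (ENSDARG00000045143), by 2.12 (adjusted p = 0.0113). The other tested copies under that symbol were not called, and 6 of the 14 genes were below 0. Of 10 epidermal genes 0 were called by edgeR, 0 by DESeq2 and 1 had an unadjusted p under 0.05. For all tested genes these shares were 2.33%, 5.19% and 17.4%, as above. The 1 tested thrombocyte gene was called by neither test and did not have such a p. The part of these cell types in the granulocyte gene levels was not tested.

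Each granulocyte gene was also divided by the summed CPM of the pan-leukocyte list in the same library. As 63.8% to 82.8% of that sum came from arhgdig, the ratio follows that 1 gene more than white cells in general. Per 100 CPM of that sum, mpx was at 3.71, 4.38 and 5.89 CPM in the 36433 wildtypes and 0.743, 1.23 and 0.930 CPM in the mutants. In line 23095 this was 4.26 and 4.62 CPM in wildtypes and 0.0857, 0.297 and 0.239 CPM in mutants. The mpx level was thus lower relative to the list in every mutant of both lines. For npsn the 23095 wildtypes had 1.89 and 2.07 CPM per 100 and the mutants 0.557, 0.890 and 0.716 CPM, with no overlap, and the 36433 groups overlapped. The lyz ratio lay below the wildtypes in every 23095 mutant and overlapped in line 36433, and ncf1 overlapped in both lines. The csf3r ratio was above in both lines, and that of mmp13a was below in both, on counts of 0 to 12. That of cebp1 was above in line 36433 alone, on 1 to 3 counts in wildtypes and 2 to 8 in mutants. That of cebpb was above in line 23095 alone. The share of all tested genes that separate on this ratio was not counted.

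Because most of the list's sum came from arhgdig, the ratio was also taken to the sum of lcp1 and coro1a alone. The pair was chosen after both were seen to fall, while other genes of the list were above 0, such as itgb2 at 0.94 (adjusted p = 0.113) and ptpn6 at 0.45 (0.305). The sum of the pair was 14.3 ± 3.93 CPM in the 36433 wildtypes and 5.83 ± 2.07 CPM in the mutants (SD, n = 3 each), and 17.2 ± 2.88 (n = 2) against 4.6 ± 0.228 CPM (n = 3) in line 23095. In line 23095 mpx per summed CPM was 0.326 and 0.480 in wildtypes and 0.0256, 0.0541 and 0.0779 in mutants, all below the wildtypes. In line 36433 it was 0.378, 0.850 and 0.820 in wildtypes and 0.137, 0.374 and 0.396 in mutants, so that 1 mutant exceeded the lowest wildtype. The separation of mpx in line 36433 therefore depended on the genes it was divided by. So did that of npsn in line 23095, at 0.145 and 0.215 in wildtypes and 0.167, 0.162 and 0.234 in mutants. The same held for mmp13a in line 23095, at 0.00987 and 0.0135 in wildtypes and 0, 0 and 0.0260 in mutants. As on the list ratio, mmp13a was below in line 36433. The lyz ratio was again below in line 23095 alone, and ncf1 again overlapped in both lines. All 3 of csf3r, cebp1 and cebpb were above the wildtypes in both lines on this ratio, again with no share over all genes counted. As the pair itself was lower in mutants, a gene of unchanged level rises on this ratio, so this is no result about the 3 genes. The own level of cebpb was at -0.03 on average. Its ratio had means of 2.14 and 5.16 in line 36433 and 1.62 and 5.97 in line 23095, so a higher ratio to this pair is not particular to csf3r.

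**Figure D4:**
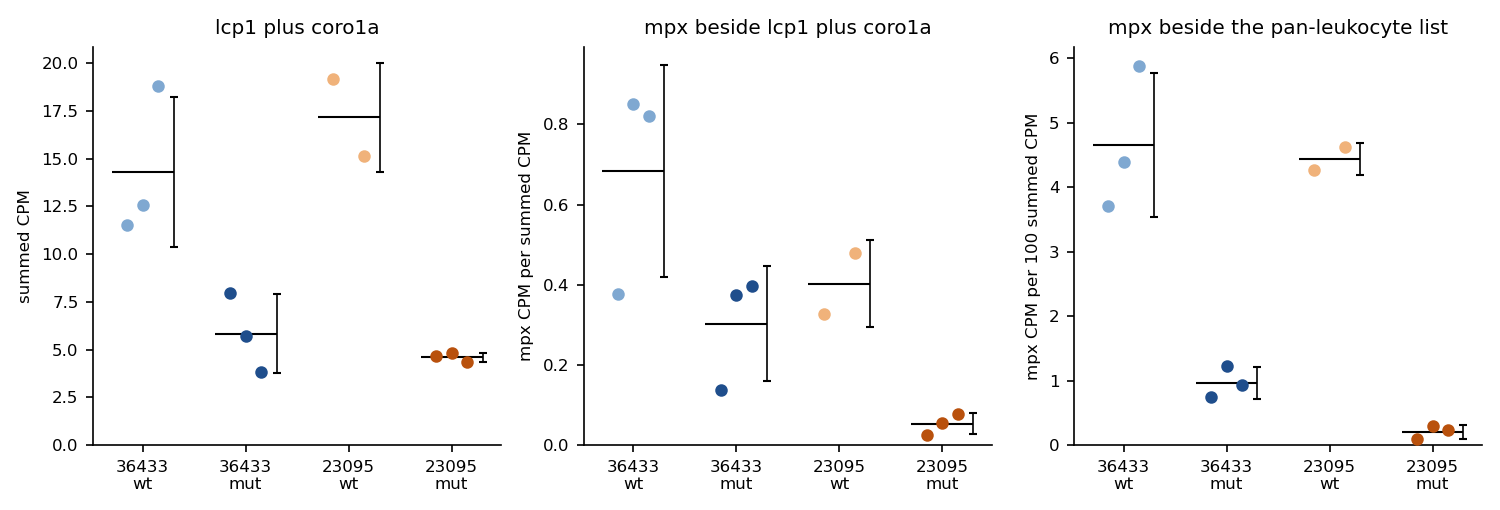
Summed CPM of lcp1 and coro1a (left), mpx CPM per that sum (middle), and mpx CPM per 100 summed CPM of the whole pan-leukocyte list (right) in each library (points), with the group mean (line) and SD (bar). The mpx ratio to the list is lower in every mutant of both lines, whereas the ratio to lcp1 and coro1a overlaps between the 36433 groups.

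The genes whose pattern over the 11 libraries was nearest to that of mpx, by the root mean square difference of mean-centred log2 CPM among 18332 genes with a mean of at least 1 CPM, were pvalb8 (0.526), the MFAP4 copy ENSDARG00000088745 (0.626) and lyz (0.821). For scale, mpx itself had a spread of 1.94 about its mean on that measure. The parvalbumin gene pvalb8, which encodes a calcium-binding protein, was at 3.65, 17.9 and 17.0 CPM in the 36433 wildtypes and at 2.58, 1.56 and 1.45 CPM in the mutants. In line 23095 pvalb8 was at 6.37 and 6.71 against 0.417, 0.518 and 0.339 CPM. Like mpx, it was lowest in the 23095 mutants and did not overlap between mutants and wildtypes of either line. That likeness follows from how pvalb8 was picked and is not a separate finding.

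The nearest patterns to lyz (spread 1.69) were those of and1, a structural gene of the fin fold (0.688), the ion transporter gene slc12a10.2 (0.763) and pvalb8 (0.802). Of these, and1 was at 23.7, 78.7 and 129 CPM in the 36433 wildtypes, so that its replicates 1 and 3 were the lowest and the highest as for lyz. For csf3r (spread 0.754) they were the calcium channel subunit gene cacnb2b (0.283), tmem42b (0.311) and the ubiquitin ligase gene trim25 (0.315). In the average over lines tmem42b rose by 1.42 (adjusted p = 0.0184) and trim25 by 0.97 (adjusted p = 0.0121), and cacnb2b was at 1.04 (adjusted p = 0.146). These differences are descriptions over 11 libraries that share their groups. The genes were picked for likeness over the same libraries, so their changes and adjusted p-values add no separate evidence.

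**Figure D5:**
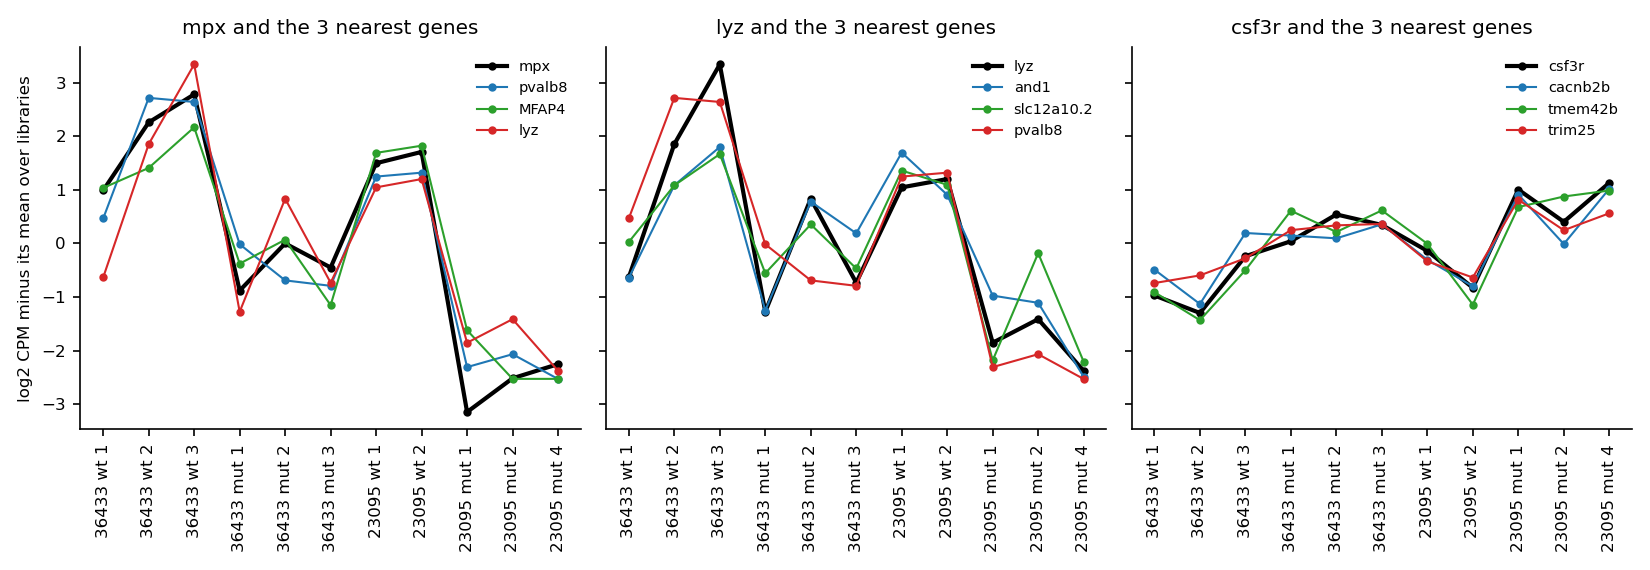
Log2 CPM minus its mean over the 11 libraries for mpx, lyz and csf3r (black) and the 3 genes nearest to each (colours); lines only join the points of a gene, and libraries have no order within a group. The mpx and lyz values are lowest in the 23095 mutants, and csf3r is above every wildtype in all 6 mutant libraries.

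The separate gene listed as epx (ENSDARG00000012535) was low, at a mean of 0.280 ± 0.204 CPM in the 36433 wildtypes and 1.05 ± 0.0396 CPM in the 23095 wildtypes (SD, n = 3 and n = 2). Its average log2 fold change of -1.21 did not pass the edgeR test (adjusted p = 0.257).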

How the data were processed

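RNA counts from 11 libraries of pooled tails were used. The authors deposited their counts as 1 table of unnormalized integers, 1 row for each Ensembl gene; 0 of its per-sample columns were left unused. Their deposited comparison tables hold log2 fold changes and an adjusted p-value for each gene, per the file headers. Their design and any shrinkage are not given in the sources used here. Per the labels' protocols a stranded total RNA kit with ribosomal RNA removal was used. Named in the submitters' processing notes are the build GRCz11 and the tools STAR 2.7.2c, cutadapt 1.16 and DESeq2 1.22.2. The read counter, its strand setting and the annotation are not given in the sources used here.

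Identifiers were named from a gene name table (21998 of 23617 had a symbol). The 128 listed genes gave 115 identifiers, through symbols, ortholog symbols and a hand-made list of aliases made after the tables had been seen, and 21 were not matched. Counts were TMM-scaled, filtered with filterByExpr (minimum count 10, minimum total 15) and tested by edgeR's quasi-likelihood F-test (glmQLFTest after glmQLFit, two-sided, edgeR 4.0.16, R 4.3.3) in 1 model of 4 group means (7 residual degrees of freedom). Adjustment was over all 20886 tested genes. The fit was also run on counts simulated from its own estimates of mean and spread, which cannot test how well those estimates hold. No 2 libraries were near-identical (highest correlation of log2 CPM 0.982). Log2 CPM used a prior count of 2. Counting intervals are exact conditional binomial intervals at 95%.

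Named were the 8 genes, kdm1a, called list genes and otherwise up to 4 per list with the smallest p, and the 3 nearest patterns. The members and lists were chosen with earlier results of these data known. Alternatives were DESeq2 1.42.0, its size factors in edgeR, library totals alone, no filter, a filter of 1 CPM in 3 libraries, a replicate block, only the compared groups, and each library left out. The ratio to the sum of lcp1 and coro1a was added after seeing the data, beside that to the pan-leukocyte list. No sequences were used.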

Additional observations from a re-analysis of the deposited data

How the results depend on the processing

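Over the 7 tested genes, 6 comparisons and all alternatives, 487 of 556 values kept their direction and their side of the threshold, 19 lost a call, 10 gained one and 40 changed sign, the last all among values that were not called. The count of called genes in line 36433 was 1 and became 0 with only the groups compared. In line 23095 it went from 1 to 2 with library totals alone and to 3 with DESeq2, in the average from 3 to 5 with DESeq2, and between the mutants of both lines from 0 to 1 with library totals alone, DESeq2 or only the groups compared. With 1 library left out at a time the count was 0 to 1 in line 36433, 1 in line 23095 and 1 to 5 in the average. Over the lists in the average, DESeq2 moved the called pan-leukocyte genes from 3 to 5, macrophage genes from 4 to 7 and oxidase genes from 0 to 2. Leaving out 1 library gave 0 to 4, 1 to 6 and 0 to 1 of these, 1 to 4 granule genes, 0 to 2 receptor genes and 2 to 6 transcription factor genes. Over all genes, the called count in line 36433 was 35 and became 124 with DESeq2. In line 23095 it was 340, with 980 by DESeq2, 33 with the replicate block and 6 with only the groups compared, and in the average 486, with 1083 by DESeq2 and 211 with the block. With 1 library left out these counts ran from 12 to 64, 4 to 619 and 56 to 1439, lowest without 36433 mutant replicate 3 in line 36433 and without 23095 wildtype replicate 1 in the others, and highest without 36433 wildtype replicate 1 in each. Library totals alone moved the median of all genes in line 23095 from 0.02 to 0.14, and changes under it are read against that shift.

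Deviations of same-numbered mutants and wildtypes had correlations of 0.200, 0.0805 and 0.0182 in line 36433, where differently numbered ones ranged from -0.202 to 0.159. In line 23095 they were -0.0779 and -0.183. With only 2 wildtypes centred on their mean, each value there has an equal and opposite one, so these cannot inform on pairing. Replicate numbers were not taken to pair the pools, a choice that these correlations do not settle. With the replicate number as a block, 1 gene was called in each line and 2 in the average, where lyz lost its call (adjusted p = 0.0501), and the called macrophage genes went from 4 to 2. Under the block cebpb was at -0.071 in line 23095, and the difference between lines was 0.48 for cebp1 and -0.037 for cebpb.

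The sign of cebpb in the average became 0.069 with library totals alone. With 1 library left out, cebpb ranged from -0.28 to 0.18 in line 36433, -0.10 to 0.17 in line 23095, -0.14 to 0.10 in the average, -0.33 to 0.14 between wildtypes and -0.15 to 0.12 between mutants. Between wildtypes the ranges were -0.069 to 0.71 for csf3r, -0.16 to 1.27 for cebp1, -1.74 to 0.045 for lyz and -1.31 to 0.31 for npsn. For the difference between lines they were -1.18 to 0.42 for npsn, -0.75 to 1.18 for ncf1, -0.14 to 0.65 for csf3r, -0.59 to 0.83 for cebp1 and -0.17 to 0.28 for cebpb. The cause of these moves was not tested. Counts of 0 to 6 in mpx, lyz and mmp13a limit their folds in the 23095 mutants.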
